A study of Citrus junos with 4 samples.

Results

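Genes of ethylene synthesis and perception were examined in mature leaves of 2× (diploid) and 4× (doubled diploid) plants of Ziyang xiangcheng (Citrus junos), a citrus used as a rootstock. The members were the genes of the deposited expression table whose description contains a term for S-adenosylmethionine (SAM) synthase or synthetase, 1-aminocyclopropane-1-carboxylate (ACC), ethylene receptor, ethylene insensitive, EIN3-binding or reversion-to-ethylene. Genes whose text also names an ethylene-responsive transcription factor, a flavonol synthase or a gibberellin enzyme were left out. A term was present in 178 genes, of which 130 were left out, so 48 of the 29406 genes were members. In 25 members the first protein of the description was one of the pathway, and in 23 it was another protein with a related sequence or an ethylene term further on in the text. No gene carried a reversion-to-ethylene term.

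Leaves of 4 untreated seedlings were pooled for each library, and both ploidy levels had 2 pools from different plants, called 2×-1, 2×-2, 4×-1 and 4×-2. The 4× plants are doubled diploids with the genotype of the 2× plants. The leaves were fully expanded and 3 to 5 months old. Expression was given as RPKM, in which the reads are scaled by gene length and by the total of the library, so a value is a share of the library and not an amount of RNA.

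Ethylene is made from methionine. SAM synthetase converts methionine to SAM, ACC synthase turns SAM into ACC, and ACC oxidase turns ACC into ethylene. The receptors of ethylene, which resemble histidine kinases, keep the kinase CTR1 active in the absence of the hormone. When ethylene binds, CTR1 is switched off, EIN2 relays the signal, and the transcription factors EIN3 and EIL accumulate because the F-box proteins EBF no longer direct their degradation. These roles are known mainly from Arabidopsis, where the hormone promotes leaf senescence and abscission. SAM is also the methyl donor of many other reactions and a source of polyamines.

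The libraries held 8874306 to 9545185 reads behind the RPKM values, recovered from the steps between values, so that 1 read on a gene of 1 kb was worth 0.105 to 0.113 RPKM. Summed RPKM of 17 mesophyll marker genes (the small subunit of Rubisco and chlorophyll a-b binding proteins) was 15111 and 18491 in 2× and 17810 and 18049 in 4×, and of 15 tested genes 13 had a log2 difference above 0 (median 0.23), 7 had both 4× libraries above both 2× libraries and 2 below, 2 had an unadjusted p below 0.05 and 1 was called, lower in 4×. Among 14 genes with guard cell terms only 4 reached the level for a test, 0 were called and 0 had an unadjusted p below 0.05, and their sum was 13.2 to 15.9 RPKM. The broad text lists for xylem (76 genes, summed RPKM 4642 to 5015, 2 called higher and 1 lower and 10 at an unadjusted p below 0.05 of 22 tested) and phloem (151 genes, 1021 to 1132, 0 called and 2 at an unadjusted p below 0.05 of 47 tested) had overlapping sums in 2× and 4×, while the libraries of 2× and 4× overlapped in 6 of the 22 tested xylem genes. Summed RPKM of 31 genes with senescence terms was 349 and 332 in 2× and 453 and 445 in 4×, and 2 of 13 tested genes were called, both higher in 4×, 6 had an unadjusted p below 0.05, and both 4× libraries lay above 2× in 7 and below in 4. Over all tested genes 1.39% were called and 13.3% had an unadjusted p below 0.05. Both 4× libraries lay on one side of both 2× libraries in 43.7% of all tested genes, 2833 above and 4230 below. Of all 16157 tested genes, 7170 had a log2 difference above 0. The groups overlapped in 32 of the 47 tested phloem genes and in all 4 tested guard cell genes. The xylem and senescence lists had the same highest log2 difference (1.19) and the same lowest adjusted p (limma, 0.00897). They share a called gene, so their calls are not separate. How far any of these lists bears on the members was not tested.

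Most tested members had small estimated differences between 2× and 4× leaves, although equality of the levels was not tested. The member that passed the test was a SAM synthetase, Cs6g01310, whose mean was 34.2% lower in 4×. This call was lost in 5 of 12 alternatives, including the fit without a filter on low values, which called 0 of 24073 genes. Cs9g08990, an ACC oxidase homolog with a higher value in 4×, was tested in 11 of the 12 and called in 3. The 3 included a fit with a replicate block, although the replicate numbers did not pair the samples. Of the 48 members, 41 averaged 1 RPKM or more and were tested with limma on log2(RPKM + 0.5), with p-values adjusted by Benjamini-Hochberg over 16157 genes. At an adjusted p below 0.05, 1 of 41 members was called, lower in 4×, and 0 were called higher. The share of all tested genes called was 1.39%, and the share called lower was 0.99%. An unadjusted p below 0.05 was found for 4 of 41 members, against 13.3% of all tested genes. In 13 of the 41 members (31.7%) both 4× libraries lay on one side of both 2× libraries, 7 above and 6 below, against 43.7% of all tested genes. The median log2 difference (4× minus 2×) was 0.07 over the members and -0.03 over all tested genes, and 35 of 41 members lay within 0.3 on the log2 scale, a share of 85.4% against 80.1% of all tested genes. Read against this background, the number of calls is not a result about the members as a group.

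**Figure D1:**
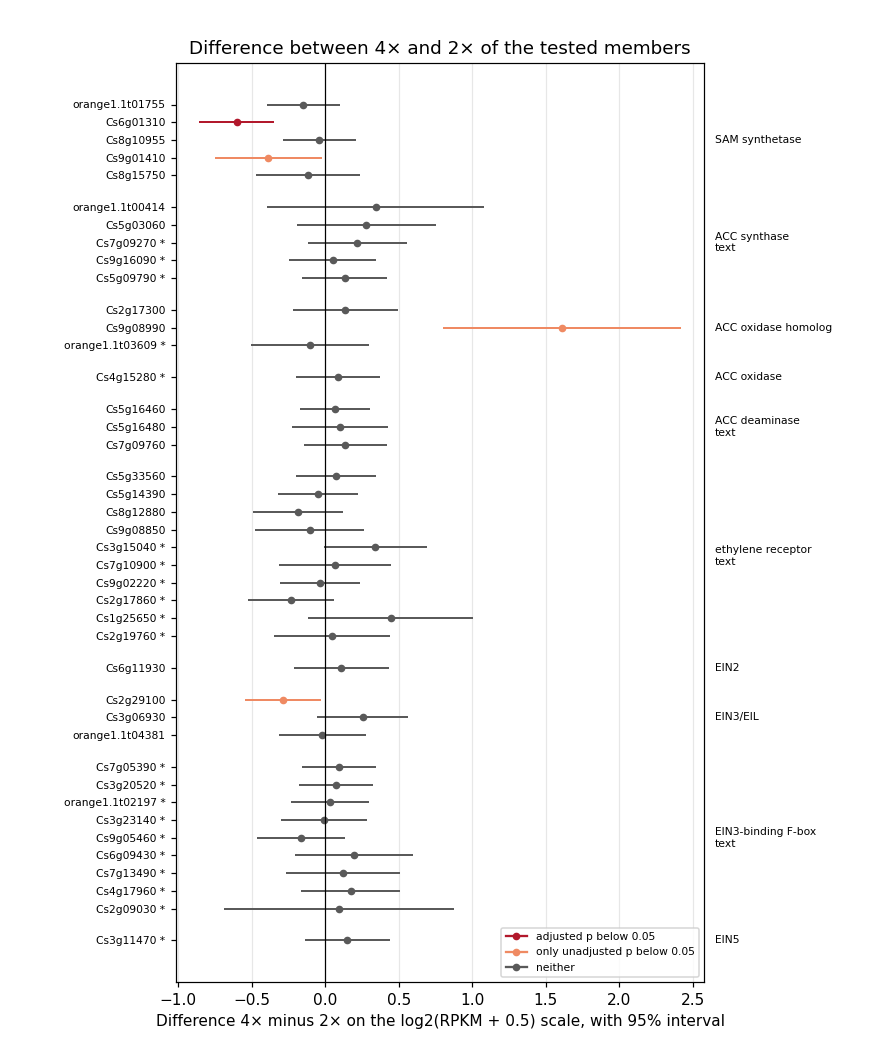
Log2 difference between 4× and 2× (x axis, on the log2(RPKM + 0.5) scale, limma) of the 41 tested members, ordered by step of the pathway, with points for the estimate and lines for its 95% interval. An asterisk marks a gene whose first described protein is not of the pathway. The interval of Cs6g01310 lies below 0 and that of Cs9g08990 above it, at 1.61, and most others span 0.

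Levels within a role differed far more than those between ploidies. Mean RPKM of the tested members ranged from 1.34 for an F-box-like gene (Cs2g09030) to 646 for Cs7g09270, described first as an alanine aminotransferase. A mean above 15 RPKM was reached by 26 of the 41 tested members. Among the 7 members that were not tested, 4 were listed at 0 in every library. These were the ACC synthases Cs1g21210, Cs3g16400 and Cs4g13490 and an exoribonuclease-like gene, orange1.1t02841. The other 3 had between 1 and 15 reads over the 4 libraries: the ACC synthase orange1.1t00416 with 1 read in 4×-2, the EIN3-like Cs3g06940 with 5 reads in 2× and 10 in 4×, and the histidine kinase Cs7g07010 with 4 reads in 2× and 1 in 4×. At these counts no difference was detectable.

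**Figure D2:**
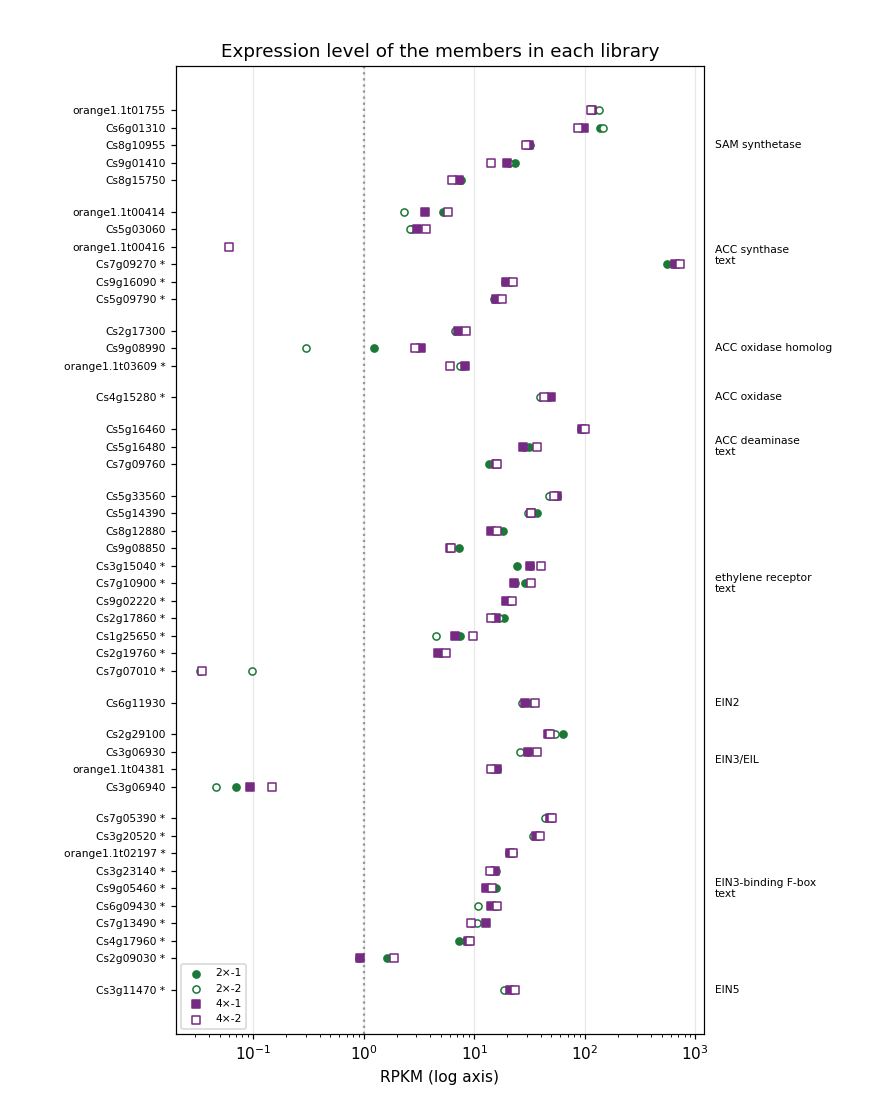
RPKM (log axis) of the members in 2×-1, 2×-2, 4×-1 and 4×-2, grouped by step of the pathway, with 1 symbol per library. Values of 0 are not drawn, the dotted line marks 1 RPKM, and an asterisk marks a gene described first as a protein outside the pathway. The symbols of a gene lie close together in most rows, and those of Cs9g08990 are spread from 0.302 to 3.28 RPKM.

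SAM synthetase, the enzyme of the first step, was represented by 5 genes, all with descriptions that open with that enzyme and all tested. Cs6g01310 had 138 and 146 RPKM in 2×-1 and 2×-2 and 99.4 and 87.5 RPKM in 4×-1 and 4×-2. Both 4× libraries were lower than both 2× libraries, and the gap between the groups was wider than the gap within either. The means were 142 ± 5.10 RPKM in 2× and 93.4 ± 8.44 RPKM in 4× (SD, n = 2 libraries each), and limma gave a log2 difference of -0.60 (SE 0.111, adjusted p = 0.038). The recovered reads were 4991 in 2× and 3180 in 4×, so counting error was small beside this difference. In RNA of whole leaves, fewer cells of a type and less RNA per cell cannot be told apart. The call was close to the threshold and was lost with median-of-ratios scaling (limma adjusted p = 0.0536) and without 2×-1, 2×-2 or 4×-2. It was also lost without a filter on low values (limma adjusted p = 0.247), where 0 of 24073 genes were called. The log2 difference itself stayed between -0.69 and -0.51 under all 12 alternatives.

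The other SAM synthetases were not called. The other highly expressed gene, orange1.1t01755, had 121 and 134 RPKM in 2× and 116 and 114 RPKM in 4×, a log2 difference of -0.15 (SE 0.107, limma adjusted p = 0.619). Cs9g01410 had 23.3 and 20.8 RPKM in 2× and 19.6 and 14.2 RPKM in 4×, with a log2 difference of -0.39 and an adjusted p of 0.326 (limma, unadjusted p = 0.0357). In both genes the 4× libraries lay below the 2× libraries, and in Cs9g01410 the spread came mostly from 4×-2. Cs8g10955, at 29.6 to 31.9 RPKM, and Cs8g15750, at 6.30 to 7.52 RPKM, overlapped between the groups, with log2 differences of -0.04 and -0.12. All 5 estimates were below 0, with a median of -0.15. Over all tested genes 8987 estimates were below 0 and 7170 above, with a median of -0.03. All 5 tested genes with ACC synthase text and all 3 with ACC deaminase text had estimates above 0.

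Because the copies code for the same enzyme, their RPKM was also summed. The 5 genes together had 322 and 339 RPKM in 2× and 274 and 251 RPKM in 4×, or 330 ± 11.5 and 263 ± 16.0 (SD, n = 2). The sum was lower in both 4× libraries, and Cs6g01310 accounted for most of the gap. It made up 42.9% and 43.0% of the sum in 2× and 36.3% and 34.8% in 4×, while orange1.1t01755 made up 37.6% and 39.6% in 2× and 42.3% and 45.3% in 4×. The order of these leading genes was therefore reversed, with Cs6g01310 first in both 2× libraries and orange1.1t01755 first in both 4× libraries. The sums were described and not tested. The copies resemble each other, and only uniquely mapped reads were counted. Reads that fit several copies may therefore be missing from the single values and also from the sum, which makes both less certain.

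**Figure D3:**
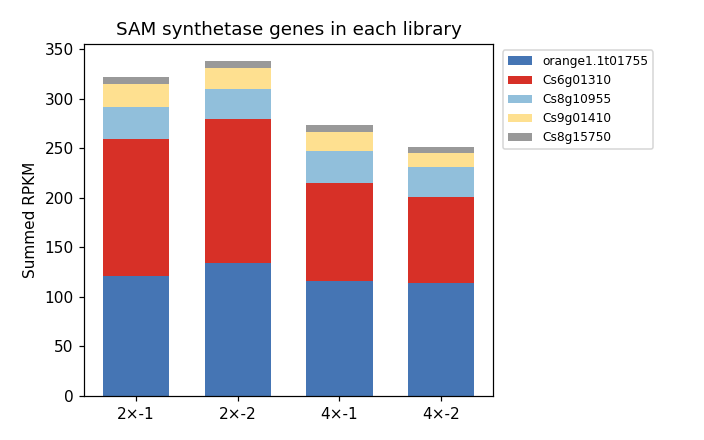
Summed RPKM (y axis, from 0) of the 5 SAM synthetase genes in each library, with 1 colour per gene. The bars reach 322 and 339 RPKM in 2× and 274 and 251 RPKM in 4×, and the segment of Cs6g01310 is smaller in both 4× bars.

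ACC synthase, which is usually the step that limits ethylene production, was expressed at a low level in these leaves. Of 6 genes first described as ACC synthases, 3 were listed at 0 in all libraries, 1 had a single read, and 2 were tested (both named after their values were seen). orange1.1t00414 (ACS2) had 5.17 and 2.33 RPKM in 2× and 3.57 and 5.85 RPKM in 4×, from 38 reads in 2× and 46 in 4×. Cs5g03060 had 2.69 and 2.62 RPKM in 2× and 3.01 and 3.68 RPKM in 4×. The first gene overlapped between the groups, and the second was higher in both 4× libraries, but neither was called. The log2 differences were 0.34 (95% interval -0.39 to 1.07) and 0.28 (-0.19 to 0.75), intervals that include differences in either direction.

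The 3 further genes with ACC synthase text were first described as other aminotransferases, an enzyme family to which ACC synthases belong. Cs7g09270, an alanine aminotransferase, had 557 and 638 RPKM in 2× and 660 and 728 RPKM in 4× and was the most highly expressed member (log2 difference 0.22, SE 0.147, limma adjusted p = 0.597). Cs9g16090, related to ACS12, had 21.3 and 18.9 RPKM in 2× and 19.2 and 22.6 RPKM in 4× (log2 difference 0.05). In Arabidopsis the ACS12 and ACS10 proteins act as aminotransferases and not as ACC synthases. Cs5g09790, related to ACS10, had 15.1 and 15.5 RPKM in 2× and 15.7 and 18.0 RPKM in 4× (log2 difference 0.13, limma adjusted p = 0.734). Both 4× libraries lay above both 2× libraries in Cs5g09790 and Cs7g09270, and the groups overlapped in Cs9g16090. Among all tested genes 43.7% did not overlap.

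At the last step, 4 members carried ACC oxidase text, and 3 of them named an ACC oxidase homolog, a term for dioxygenases that resemble ACC oxidase in sequence and whose activity on ACC is not established by the name. Cs9g08990 (ACC oxidase homolog 3) had 1.24 and 0.302 RPKM in 2×-1 and 2×-2 and 3.28 and 2.92 RPKM in 4×-1 and 4×-2. Both 4× libraries lay above both 2× libraries, which themselves differed more than the 4× libraries did. The log2 difference was 1.61, the widest among the tested members, with an SE of 0.358 and an adjusted p of 0.0687 by limma, so it was not called. Its mean was 0.769 RPKM in 2× and 3.10 RPKM in 4×, so it reached the filter of 1 RPKM only through the 4× libraries. Its calls under the alternatives therefore came from a gene admitted by the group where it was higher. This gene had 15 reads in 2× and 59 in 4×, and 12 of the 15 came from 2×-1. The ratio of reads per library total was 4.07 (95% exact interval 2.28 to 7.72, for counting error only).

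The call for Cs9g08990 depended on the test. With limma voom on the recovered reads, which called 2.5% of all tested genes, 2 of 41 members were called, namely Cs6g01310 (adjusted p = 0.0107) and Cs9g08990 (log2 difference 2.23, adjusted p = 0.0282). Without 2×-1 the limma estimate was 2.17 (adjusted p = 0.022), and without 2×-2 it was 1.05 (adjusted p = 0.183). Over the 11 alternatives in which this gene was tested, the estimate lay between 1.05 and 2.23. The lowest adjusted p (limma, 4.74e-05) came with the replicate block, although the replicate numbers did not pair the samples. The highest (limma, 0.329) came without a filter on low values. With a mean of at least 3 RPKM the gene was not tested. The primers designed in the study for quantitative PCR of this gene are given to identify the transcript, each 5′ to 3′.
Cs9g08990 forward primer: gattgcgctgagggtctaatg
Cs9g08990 reverse primer: tggctgtgggcatgca

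The other members with ACC oxidase text showed no such gap. Cs2g17300 (ACC oxidase homolog 4) had 7.33 and 6.77 RPKM in 2× and 7.20 and 8.43 RPKM in 4×, with a log2 difference of 0.14. orange1.1t03609, described first as deacetoxyvindoline 4-hydroxylase, had 7.90 and 7.42 RPKM in 2× and 8.27 and 6.07 RPKM in 4×, with a log2 difference of -0.10. Cs4g15280, described first as an iron/ascorbate oxidoreductase, had 47.5 and 39.7 RPKM in 2× and 49.5 and 43.2 RPKM in 4×, with a log2 difference of 0.09. The 2× and 4× libraries overlapped in all 3 genes.

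The 130 genes left out include 6 described first as an ACC oxidase proper, because their text also names a flavonol synthase or a gibberellin enzyme. They are no members, but 3 of them reached the level for a test and bear on this step (named after their values were seen). Cs2g20590 had 325 and 255 RPKM in 2× and 266 and 253 RPKM in 4× (log2 difference -0.15, limma adjusted p = 0.729). Cs2g02500 had 38.8 and 34.8 RPKM in 2× and 30.2 and 30.1 RPKM in 4× (-0.28, limma unadjusted p = 0.0284, limma adjusted p = 0.295). orange1.1t04066 had 19.2 and 20.5 RPKM in 2× and 23.6 and 23.2 RPKM in 4× (0.23, limma adjusted p = 0.422). The groups did not overlap in the latter pair, lower in 4× for Cs2g02500 and higher for orange1.1t04066, and none of the 3 was called.

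The 3 members with ACC deaminase text resemble bacterial enzymes that break ACC down and plant D-cysteine desulfhydrases. Cs5g16460 had 93.0 and 93.8 RPKM in 2× and 94.1 and 101 RPKM in 4× (log2 difference 0.06). Cs5g16480 had 31.0 and 28.3 RPKM in 2× and 27.7 and 36.6 RPKM in 4× (log2 difference 0.10). Cs7g09760 had 13.7 to 15.9 RPKM and a log2 difference of 0.14. None was called by limma or voom, and none had an unadjusted p below 0.05 by limma, and the 95% interval of the most highly expressed, Cs5g16460, ran from -0.17 to 0.30.

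**Figure D4:**
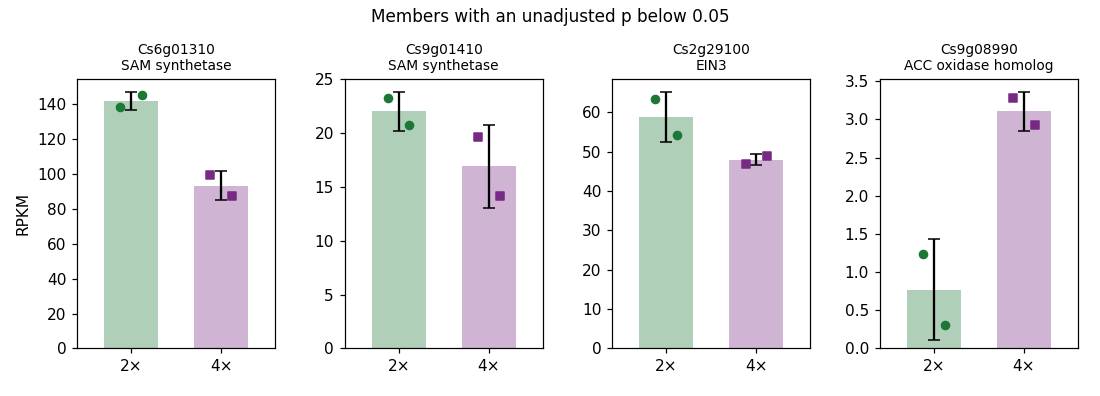
RPKM (y axes, from 0) of the 4 members with an unadjusted p below 0.05, with points for libraries, bars for means and error bars for SD (n = 2 libraries per group). Cs6g01310, Cs9g01410 and Cs2g29100 are lower in both 4× libraries, and Cs9g08990 is higher in both. Only Cs6g01310 passed the adjusted threshold of 0.05.

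Perception of ethylene was represented by 4 genes described first as an ethylene receptor, and none was called by limma or voom, and none had an unadjusted p below 0.05 by limma. Cs5g33560 (ethylene response sensor 1) was the highest, with 56.4 and 47.2 RPKM in 2× and 56.2 and 52.2 RPKM in 4×. Cs5g14390 (ethylene receptor 2) followed with 36.8 and 30.9 RPKM in 2× and 32.4 and 32.6 RPKM in 4×. Their log2 differences were 0.07 (95% interval -0.19 to 0.34) and -0.05 (-0.32 to 0.21), and the libraries of 2× and 4× overlapped in both. Cs8g12880 (EIN4) had 14.1 to 18.4 RPKM and Cs9g08850 (ethylene receptor 2) had 6.07 to 7.24 RPKM, with log2 differences of -0.18 and -0.10. The order of the 4 receptors was the same in every library. Their sum was 109 ± 13.2 RPKM in 2× and 108 ± 1.13 RPKM in 4× (SD, n = 2).

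The 7 further genes with receptor text were first described as histidine kinases, cytokinin receptors or phytochrome B, proteins that share the histidine kinase fold. Of these, 6 were tested, and 0 were called and 0 had an unadjusted p below 0.05 by limma. The lowest p was that of Cs3g15040 (histidine kinase CKI1), which had 24.6 and 32.3 RPKM in 2× and 32.2 and 39.8 RPKM in 4× (log2 difference 0.34, limma adjusted p = 0.382, named after its values were seen). The 2×-2 value of this gene lay just above that of 4×-1, so the groups overlapped. The cytokinin receptor Cs2g17860 was the gene of this kind whose 4× libraries both lay below 2×, at 15.9 and 14.2 RPKM against 18.7 and 16.7 RPKM (log2 difference -0.23, limma adjusted p = 0.494).

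Downstream of the receptors, EIN2 was represented by Cs6g11930, with 32.6 and 26.9 RPKM in 2× and 28.7 and 35.7 RPKM in 4×. The groups overlapped, and the log2 difference was 0.11 (95% interval -0.21 to 0.43, limma adjusted p = 0.823). EIN3, the main transcription factor of the pathway, was represented by Cs2g29100, with 63.3 and 54.3 RPKM in 2× and 46.9 and 48.9 RPKM in 4×. Both 4× libraries were lower than both 2× libraries in this gene, by a log2 difference of -0.29 (SE 0.113, limma unadjusted p = 0.0296), but the adjusted p was 0.299 and it was not called. Its relative Cs3g06930 (EIL1) had 30.8 and 25.8 RPKM in 2× and 30.6 and 37.1 RPKM in 4×, with a log2 difference of 0.25 (limma adjusted p = 0.471). The estimates of these related factors differed in sign, and whether their responses differ was not tested. orange1.1t04381 (EIL3) had 14.3 to 16.2 RPKM, with overlapping groups.

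The 9 members with EIN3-binding text were all described first as another protein, mostly F-box or leucine-rich repeat proteins, so which of them acts on EIN3 is not settled by the descriptions. All 9 were tested, 0 were called, and 0 had an unadjusted p below 0.05 by limma. With voom 0 were called as well. Cs7g05390, whose text names EIN3-binding F-box protein 1 directly after an uncharacterized protein, had 49.6 and 43.5 RPKM in 2× and 48.8 and 50.4 RPKM in 4× (log2 difference 0.09, 95% interval -0.15 to 0.34). Cs3g20520 had 37.9 and 34.1 RPKM in 2× and 36.6 and 39.2 RPKM in 4× (log2 difference 0.07). In both genes 2×-2 was the lowest library and the groups overlapped. The other 7 ranged from 1.34 to 21.7 RPKM in their means. Cs3g11470, an exoribonuclease with ethylene insensitive 5 text, which in Arabidopsis degrades the EBF transcripts, had 21.5 and 18.7 RPKM in 2× and 21.2 and 23.5 RPKM in 4× (log2 difference 0.15, limma adjusted p = 0.681).

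Of 3 lists of genes around the pathway (the SAM and Yang cycles, other ethylene signalling and ethylene-responsive transcription factors), the last held calls. None of the 23 tested genes of the SAM and methionine (Yang) cycles, out of 27, was called. An unadjusted p below 0.05 was found for 3, and the median log2 difference was -0.02. Both 4× libraries lay below both 2× libraries in 9 of the 23 and above in 1, against 4230 and 2833 of all 16157 tested genes. The most highly expressed gene of these cycles was Cs6g19210, a SAM decarboxylase of polyamine synthesis, with 722 and 756 RPKM in 2× and 707 and 602 RPKM in 4×. Among 32 other genes with ethylene signalling text, 22 were tested, 0 were called and 1 had an unadjusted p below 0.05, with a median of 0.08. This list holds the CTR1 gene Cs2g11390, with 55.0 and 48.4 RPKM in 2× and 48.0 and 58.3 RPKM in 4×.

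Among 131 genes with text for ethylene-responsive transcription factors, a family named for binding an ethylene-responsive element, 54 were tested and 6 were called, 4 higher and 2 lower in 4×, and 16 of 54 had an unadjusted p below 0.05. These counts stand beside 1.39% called and 13.3% at an unadjusted p below 0.05 among all tested genes. Cs1g07950, described as an ethylene responsive element binding factor 4-like protein, had 91.3 and 59.0 RPKM in 2× and 198 and 185 RPKM in 4× (log2 difference 1.38, limma adjusted p = 0.0078). Cs3g07310, an AP2 domain factor, had 18.3 and 9.27 RPKM in 2× and 3.32 and 2.83 RPKM in 4× (log2 difference -1.93, limma adjusted p = 0.0119). The other genes called higher were Cs1g01320 (0.93), Cs2g05620 (1.24) and Cs2g23660 (1.16), and the other called lower was Cs5g08360 (-1.54), each with its log2 difference. In all 6, which were picked by their calls, the 2× and 4× libraries did not overlap. The same held for 43.7% of all tested genes. Over the 54 tested genes, 27 log2 differences were above 0 and 27 below, with a median of 0.0048. All 6 calls were lost without a filter on low values, where 0 of 24073 genes were called. The call of Cs5g08360 was also lost without 2×-1 or 2×-2, with log2 differences of -1.52 and -1.56.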

How the data were processed

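Leaf mRNA of 4 libraries was measured by RNA-seq, 2 pools per ploidy level. The authors deposited RPKM per gene and library, computed from uniquely mapped reads aligned to the C. sinensis genome. The submitters' processing notes name TopHat2 2.0.9, Bowtie2 2.0.6 and HTSeq 0.5.4p3, and neither the annotation version nor the strand setting is stated there or in the methods. C. junos reads were placed on another species' genome, so diverged or near-identical genes have less certain values. Reads of antisense or overlapping genes may be missing or placed on the wrong gene.

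Library totals and reads were recovered from RPKM steps (tolerance 0.001 reads, 100% of 24073 genes above 0, 97.9% of each library's total), and a gene's reads are known only up to a factor shared with its length. A linear model per gene with moderated, mean-dependent variance (limma 3.58.1, R 4.3.3, two-sided, no block) was fitted to log2(RPKM + 0.5) of genes averaging 1 RPKM or more. Benjamini-Hochberg was used to adjust p, and adjusted p below 0.05 was a call. The pseudocount of 0.5 understates changes of low genes. The fit was run on simulated libraries whose changes were larger than that of Cs6g01310 and lay in genes above the level of Cs9g08990. That run does not show how the fit performs for either gene. Python 3.11.15 with pandas 2.3.3, scipy 1.17.1 and matplotlib 3.10.9 did the rest.

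Replicates are separate pools, and their counts differed by more than sampling noise (chi-square per gene 6.21 in 2× and 4.67 in 4×). Named with every value were members with an unadjusted p below 0.05, the 2 with the highest mean RPKM in each role and Cs9g08990 (19 in all). Other genes named are ones of interest to a step, chosen after their values were seen. Alternatives were pseudocounts of 0.1 and 1, no filter, a mean of at least 3 RPKM, median-of-ratios scaling, robust eBayes, the replicate block, each library left out and voom on recovered reads. At a mean of at least 3 RPKM, Cs2g09030, Cs5g03060 and Cs9g08990 were not tested. The members and lists were chosen with earlier results of these data known. No sequence beyond the primers is given.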

Additional observations from a re-analysis of the deposited data

How the results depend on the processing

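With 2 libraries per group, call counts shifted with the processing, and the causes were not tested. Members called numbered 1, and 0 without a filter (3 at an unadjusted p below 0.05, of 44), 0 with median-of-ratios scaling (5 at an unadjusted p below 0.05), 2 with voom and 0 to 1 when a library was left out. The 1 call without 2×-1 was Cs9g08990 and not Cs6g01310. All genes called numbered 224, and 0 of 24073 without a filter (2438 at an unadjusted p below 0.05), 404 with voom, and 77 to 264 when a library was left out (77 without 2×-2, 144 without 2×-1). Median-of-ratios scaling moved the median log2 difference of all genes from -0.03 to 0.0024.

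The replicate numbers mark pools of different plants, and replicate 1 minus 2 differences in 2× and 4× had a correlation of -0.05 over genes, so the numbers did not pair the samples. With a replicate block 2 members and 832 genes were called.

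Under 12 alternatives, 50 genes (41 members, 3 ACC oxidases and 6 transcription factors) gave 549 values with the direction and side of the threshold kept, 13 calls lost (5 of Cs6g01310 and 8 of the transcription factors), 3 gained (all Cs9g08990) and 32 small differences of the other sign. Of these 32, the values for Cs3g23140 (0.023) and orange1.1t04381 (0.011) came with median-of-ratios scaling. The other 30 came with a library left out, with these ranges of the log2 difference: Cs2g09030 -0.28 to 0.47, Cs2g19760 -0.068 to 0.16, Cs2g20590 -0.33 to 0.026, Cs3g20520 -0.0025 to 0.15, Cs3g23140 -0.088 to 0.073, Cs4g15280 -0.041 to 0.22, Cs5g14390 -0.18 to 0.073, Cs5g16480 -0.098 to 0.30, Cs5g33560 -0.056 to 0.20, Cs6g09430 -0.068 to 0.46, Cs6g11930 -0.045 to 0.27, Cs7g05390 -0.00050 to 0.19, Cs7g10900 -0.17 to 0.31, Cs7g13490 -0.11 to 0.34, Cs8g10955 -0.087 to 0.0084, Cs9g02220 -0.12 to 0.050, Cs9g08850 -0.22 to 0.013, Cs9g16090 -0.064 to 0.16, orange1.1t00414 -0.16 to 0.84, orange1.1t02197 -0.022 to 0.089, orange1.1t03609 -0.31 to 0.10 and orange1.1t04381 -0.100 to 0.062.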
